A study of Mus musculus with 6 samples.

Results

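Of the 754 genes measured in sorted peritoneal macrophages, 10 that encode chemokine receptors are described here, chosen by a symbol of Ccr and a digit, Cx3cr1 or Ccrl2. Ccr2 and Cx3cr1 are treated as the monocyte-type receptors and the remaining 8 as the others. The cells were F4/80+, CD11b+ macrophages sorted from the peritoneal lavage of adult C57BL/6J mice that carried ID8 tumors, a transplanted mouse ovarian cancer line, and each of the 6 samples was measured on the NanoString nCounter, where color-coded probes bound to transcripts are counted directly, without PCR. In the PBS group 3 samples came from mice injected i.p. with PBS alone, and in the IRF5-NP group 3 samples came from mice injected i.p. with nanoparticles loaded with 30 µg of mRNA for mouse interferon regulatory factor 5 (mIRF5) per dose. By the labels every mouse received 2 doses, on days 1 and 5, starting 7 weeks after the tumor cells. The methods describe VEGF-expressing ID8 cells in young female albino B6 mice, with a shorter tumor period and a larger dose of mRNA, and they describe particles that carry IKKβ mRNA as well, so that the labels and the methods differ on the model. The samples used here hold no group given empty particles or particles with another mRNA, so that the particle and its mRNA cannot be told apart. It is not stated whether a sample was a single mouse or a pool.

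Chemokine receptors are G protein-coupled receptors that steer leukocytes along gradients of small secreted chemokines. Ccr2 carries inflammatory monocytes out of the bone marrow and into tissues, and it is lowered as these cells become macrophages. Cx3cr1 binds fractalkine (Cx3cl1) and marks patrolling monocytes and some tissue macrophages. Ccr1 responds to inflammatory chemokines such as Ccl3 and Ccl5, and Ccr7 guides mature dendritic cells to lymph nodes. Ccrl2 is an atypical receptor that binds chemerin and presents it to other cells without coupling to G proteins, and it is known as an activation-induced gene of macrophages and neutrophils.

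The samples held between 683472 and 1830318 counts, with IRF5-NP replicate 3 the lowest. Its background (2 SD above the mean of its negative control probes) was 79.4 normalized counts, against 25.6 to 37.8 in the other 5 samples. PBS replicates 2 and 3 differed by less than the sampling noise of their counts (chi-square of 1.07 per degree of freedom) and were counted as 1 sample, so that n = 2 for PBS and n = 3 for IRF5-NPs. The labels do not say that the samples are separate animals, and p-values measure the spread between these samples. Gate genes were high in every sample, with 6523 to 25506 normalized counts of Adgre1, the gene of F4/80, and 15177 to 36473 of Itgam, the gene of CD11b. The Irf5 probe read 1929 to 2573 normalized counts with PBS and 1960 to 2358 with IRF5-NPs, and since the delivered mRNA was codon-optimized, binding of this probe to it was not tested.

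Of the 10 receptors, 4 lay above background in every sample (Ccr1, Ccr2, Cx3cr1 and Ccrl2), 3 in some samples (Ccr7, Ccr8 and Ccr9) and 3 in no sample (Ccr3, Ccr4 and Ccr6). Ccr3 is the eotaxin receptor of eosinophils, Ccr4 and Ccr6 are best known from T and B lymphocytes and Ccr9 guides lymphocytes to the gut. Ccr3 had 13.8 to 33.8 normalized counts over the 6 samples, Ccr4 had 8.82 to 29.0 and Ccr6 had 15.5 to 57.2. The highest Ccr3 and Ccr6 values were those of IRF5-NP replicate 3, where 1 count weighs most, and they were below its background too. Ccr9 had 21.9 to 70.2 normalized counts, and it passed the background only in PBS replicate 3 and IRF5-NP replicate 2, by at most 1.16 times. Ccr8, which marks some T cells and macrophages and in mice binds Ccl8, had 36.2 to 85.7 normalized counts, between 0.973 and 2.41 times the background. No difference was detectable in these receptors at this depth, and no fold change is given for them.

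Ccrl2 was the receptor that fell after IRF5-NPs. It had 2211, 903 and 955 normalized counts in PBS replicates 1, 2 and 3, and 293, 278 and 309 in IRF5-NP replicates 1, 2 and 3. All IRF5-NP samples lay below all PBS samples, the IRF5-NP values lay close together, and PBS replicate 1 stood above the other two PBS samples. PBS samples averaged 1570 ± 907 (SD, n = 2) and IRF5-NP samples 293 ± 15.7 (SD, n = 3), and limma put the fall at 4.88-fold (log2 fold change -2.29, standard error 0.35, 95% confidence interval -3.09 to -1.48, adjusted p = 0.00707 over all 754 genes). Without PBS replicate 1, which leaves 1 PBS sample and no spread within that group, the log2 fold change was -1.66. Without IRF5-NP replicate 3 it was -2.32 and did not pass (limma adjusted p = 0.065). In these bulk samples fewer cells that express a receptor and less of its RNA per cell cannot be told apart.

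**Figure D1:**
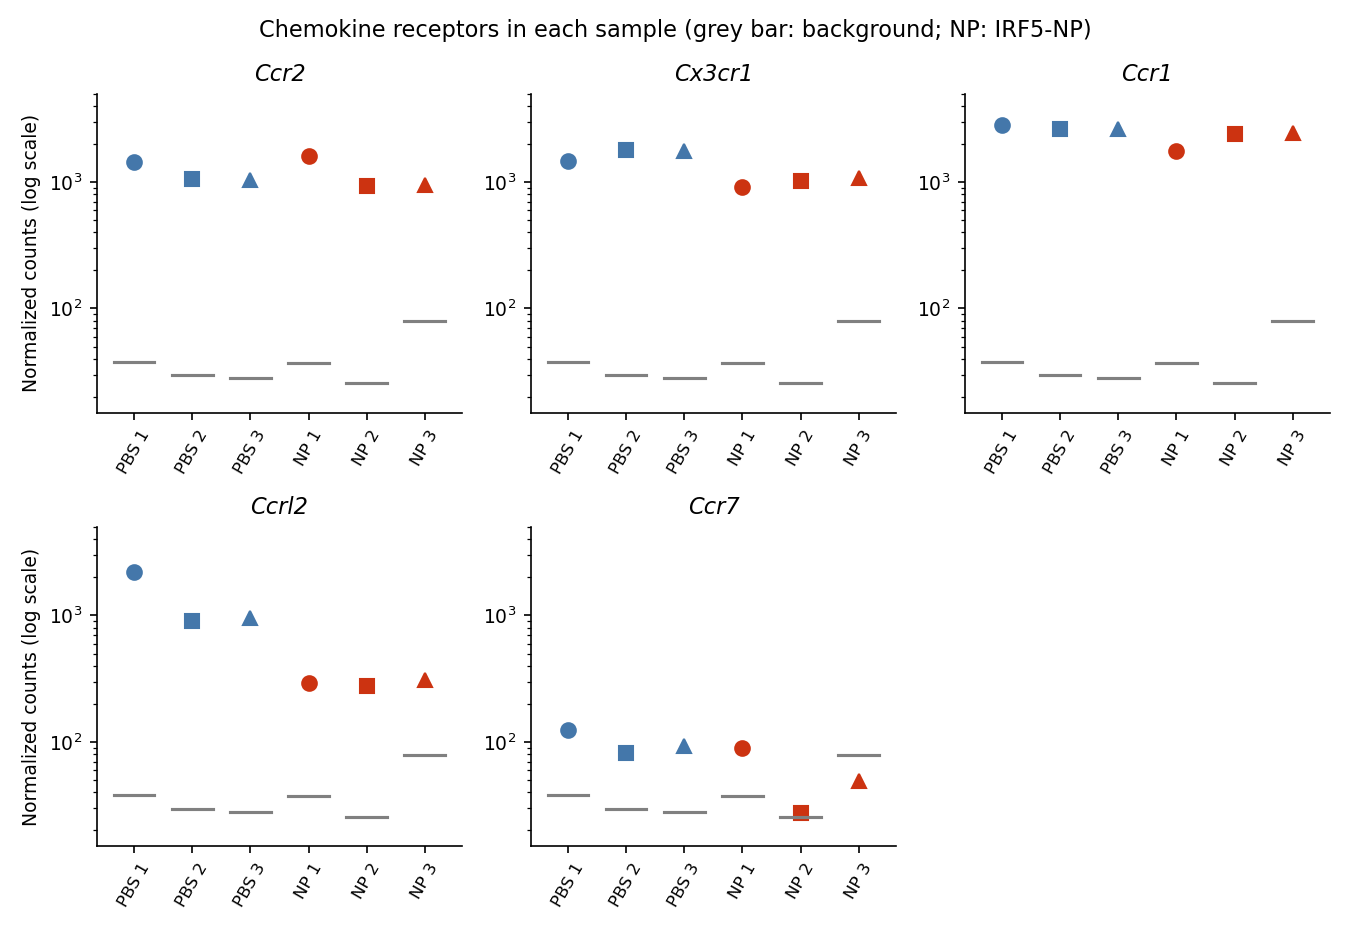
Normalized counts (log scale) of the 4 receptors above background in every sample and of Ccr7, with 1 point per sample for the PBS (blue) and IRF5-NP (red, NP) groups, a marker shape for each replicate number, and a grey bar at the background of each sample. Ccrl2 separates the groups most, with 278 to 309 normalized counts after IRF5-NPs and 903 or more with PBS, while Ccr2 overlaps and is highest in the samples numbered 1.

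A call in 1 of 10 receptors was close to the share over the panel, where 9.55% of the 754 genes passed in either direction, 7.03% passed as lower and 2.52% passed as higher. For the 482 genes above background in every sample these shares were 12.7%, 9.34% and 3.32%, and among the 4 such receptors 1 passed, as lower. Ccr1, Cx3cr1 and Ccrl2 had all IRF5-NP values below all PBS values, which is 3 of the 10 receptors and 3 of the 4 above background in every sample, and no receptor had them all above. Over the panel 20.4% of all genes were lower in this way, and 26.3% of the 482 genes above background in every sample, while 17% and 19.3% were higher. The median log2 fold change of the 4 receptors was -0.51, against -0.03 over all 754 genes and -0.06 over the 482.

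The promoters of the receptor that fell and of both monocyte-type receptors are shown for the motifs they hold, from RefSeq (GRCm38.p6), as 250 bases before to 50 bases after a start site, 5′ to 3′ on the gene's strand. They lie at chr9:111057469-111057768 (minus strand) for Ccrl2, chr9:120068247-120068546 (minus strand) for Cx3cr1 and chr9:124101933-124102232 (plus strand) for Ccr2. Capitals mark every match to 4 motifs searched on both strands.
Ccrl2: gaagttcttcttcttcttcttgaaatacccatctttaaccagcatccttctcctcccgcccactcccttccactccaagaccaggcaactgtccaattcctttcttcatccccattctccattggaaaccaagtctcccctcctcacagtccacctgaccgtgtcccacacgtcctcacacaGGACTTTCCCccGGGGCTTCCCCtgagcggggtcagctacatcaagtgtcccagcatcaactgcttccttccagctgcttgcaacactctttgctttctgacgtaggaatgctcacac
Cx3cr1: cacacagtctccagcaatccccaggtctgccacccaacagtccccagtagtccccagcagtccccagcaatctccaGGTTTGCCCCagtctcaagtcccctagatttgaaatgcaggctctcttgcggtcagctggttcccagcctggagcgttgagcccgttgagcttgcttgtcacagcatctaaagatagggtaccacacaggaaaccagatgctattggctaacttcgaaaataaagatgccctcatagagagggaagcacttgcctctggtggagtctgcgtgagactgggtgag
Ccr2: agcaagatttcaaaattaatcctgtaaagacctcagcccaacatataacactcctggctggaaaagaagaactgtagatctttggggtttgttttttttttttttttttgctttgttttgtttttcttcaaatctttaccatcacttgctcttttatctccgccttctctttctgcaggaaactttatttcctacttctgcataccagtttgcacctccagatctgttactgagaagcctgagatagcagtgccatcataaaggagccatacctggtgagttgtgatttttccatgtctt
All capitals are matches to GGG and CC with 5 bases of any kind between them, a loose form of the NF-kappaB site. In Ccrl2 they stand from -68 to -59 and, as a pair of overlapping matches, from -56 to -46, counted from the start site. In Cx3cr1 the match stands from -174 to -165, and Ccr2 has none in this window. The match was not particular to receptors that were lower. It was also held by the promoter of Ccr1, which did not pass, and by promoters of Ccr3, Ccr6, Ccr8 and Ccr9, which were at or near background. That of Ccr4 held none, and a link between the match and the change in counts was not tested. The letters are common, being held by 50.8% of 32851 promoters of this length. None of the 3 windows held the core of the interferon-stimulated response element (GAAA and GAAA with 2 bases between), the AP-1 site TGANTCA or the PU.1 core GAGGAA, which 3.44%, 7.81% and 28.3% of promoters hold. Among the receptors not printed, Ccr1, Ccr3 and Ccr6 held the PU.1 core, and Ccr3 and Ccr4 the AP-1 site. Ccrl2 has 3 start sites in this table, and the windows of the others, further downstream, held no match. The most upstream start site was taken, a choice made after the matches were seen.

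In the RefSeq gene order 8 of the 10 receptor genes share a chromosome, and Ccr7 and Ccr6 lie elsewhere. Ccr3 and Ccr2 follow each other directly among protein-coding genes, and Ccr1 lies beyond Ccr1l1, next to Ccr3. Cx3cr1 and Ccr8 are neighbors, and Ccrl2 stands apart beside Ltf. Receptor genes of such a cluster are similar in sequence, and binding of a probe to another receptor's transcript was not tested.

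Ccr2 values overlapped between the groups, and its difference was smaller than their spread. It had 1450, 1056 and 1038 normalized counts in PBS replicates 1, 2 and 3, and 1593, 937 and 951 in IRF5-NP replicates 1, 2 and 3. In each group the sample numbered 1 was the highest, and the groups overlapped. The log2 fold change was -0.13 (standard error 0.29, limma adjusted p = 0.828), and its 95% confidence interval of -0.82 to 0.55 leaves room for a difference in either direction. At its lowest Ccr2 was 12.0 times the background, in IRF5-NP replicate 3, so that its level itself was well measured.

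Cx3cr1 had 1475, 1773 and 1750 normalized counts in PBS replicates 1, 2 and 3, and 917, 1010 and 1078 in IRF5-NP replicates 1, 2 and 3. Every IRF5-NP sample lay below every PBS sample, and in each group the sample numbered 1 was the lowest, the reverse of Ccr2. PBS samples averaged 1618 ± 203 (SD, n = 2) and IRF5-NP samples 1002 ± 81.1 (SD, n = 3), which gave a log2 fold change of -0.69 (standard error 0.20, 95% confidence interval -1.16 to -0.22). It did not pass the threshold (limma adjusted p = 0.0696). With all 6 samples counted separately it passed, at -0.73 (limma adjusted p = 0.0166), and so it did with the replicate block (adjusted p = 0.016) and with array weights (adjusted p = 0.0428). The settings with 6 separate samples and with the block count PBS replicates 2 and 3 separately. Under the other 17 of 20 settings Cx3cr1 did not pass, as with a common median (limma adjusted p = 0.178) or quantile normalization (limma adjusted p = 0.208).

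Ccr1 had 2840, 2632 and 2615 normalized counts with PBS, and 1759, 2399 and 2443 in IRF5-NP replicates 1, 2 and 3. The groups did not overlap, though IRF5-NP replicates 2 and 3 came close to PBS replicates 2 and 3, and the log2 fold change was -0.33 (standard error 0.23, limma adjusted p = 0.461). IRF5-NP replicate 1, the highest sample for Ccr2, was the lowest for Ccr1.

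Ccr7 was low, with 125, 81.7 and 92.6 normalized counts in PBS replicates 1, 2 and 3, and 89.5, 27.6 and 49.4 in IRF5-NP replicates 1, 2 and 3. IRF5-NP replicate 1 lay within the range of the PBS samples, IRF5-NP replicate 2 was near the background and IRF5-NP replicate 3 was below it. The log2 fold change of -1.06 (standard error 0.48, 95% confidence interval -2.17 to 0.06) did not pass (limma adjusted p = 0.218). Of the 12 dendritic cell markers in the panel, which include Ccr7, 3 passed as lower (H2-Eb1, Itgax and Cd83) and none as higher. Over the panel the shares past the threshold were 7.03% lower and 2.52% higher. Of the 9 that did not pass, Ccl22 was lower and Irf4 higher without overlap, and Fscn1, Flt3, Clec9a, Batf3 and Ccl17 overlapped. Irf4 had 50.7 to 52.9 normalized counts with PBS and 62.4 to 71.4 with IRF5-NPs. Ccl22 was below background in IRF5-NP replicates 2 and 3, and Irf4 in IRF5-NP replicate 3, so that neither separation is clear of background. The summed level of the list was 15336 to 18817 normalized counts with PBS and 2450 to 3313 with IRF5-NPs, most of it H2-Eb1, while Xcr1 was below background in every sample. The part of dendritic cells in the Ccr7 values was not tested.

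A ratio of 2 receptors within a sample does not depend on the factor by which that sample was scaled, and the change of the ratio between groups was compared, not the levels of different probes. Ccrl2 over Ccr2 was 1.52, 0.855 and 0.920 in PBS replicates 1, 2 and 3, and 0.185, 0.297 and 0.326 in IRF5-NP replicates 1, 2 and 3. All IRF5-NP samples lay below all PBS samples, with a difference in log2 ratio of -2.15. Cx3cr1 over Ccr2 was 1.02, 1.68 and 1.69 with PBS and 0.576, 1.08 and 1.13 with IRF5-NPs. These values overlapped between the groups, because PBS replicate 1 was low, and the difference in log2 ratio was -0.56. Among the samples of each group, that numbered 1 had the lowest ratio.

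For Ccr1 over Ccr2 the ratio was 1.96, 2.49 and 2.52 with PBS, and 1.10, 2.56 and 2.57 with IRF5-NPs, so that IRF5-NP replicates 2 and 3 matched PBS replicates 2 and 3 and the samples numbered 1 were lower in both groups. All 6 pairs of the 4 receptors were compared by a two-sided exact permutation test over the 5 samples, whose 10 splits can give no p below 0.1. The 3 pairs that hold Ccrl2 each reached this p (0.2 after Benjamini-Hochberg adjustment over the 6 pairs), with differences in log2 ratio of -2.15 to -1.60, and the other 3 pairs had p of 0.3 to 1. The design thus cannot pass 0.05 for any pair.

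**Figure D2:**
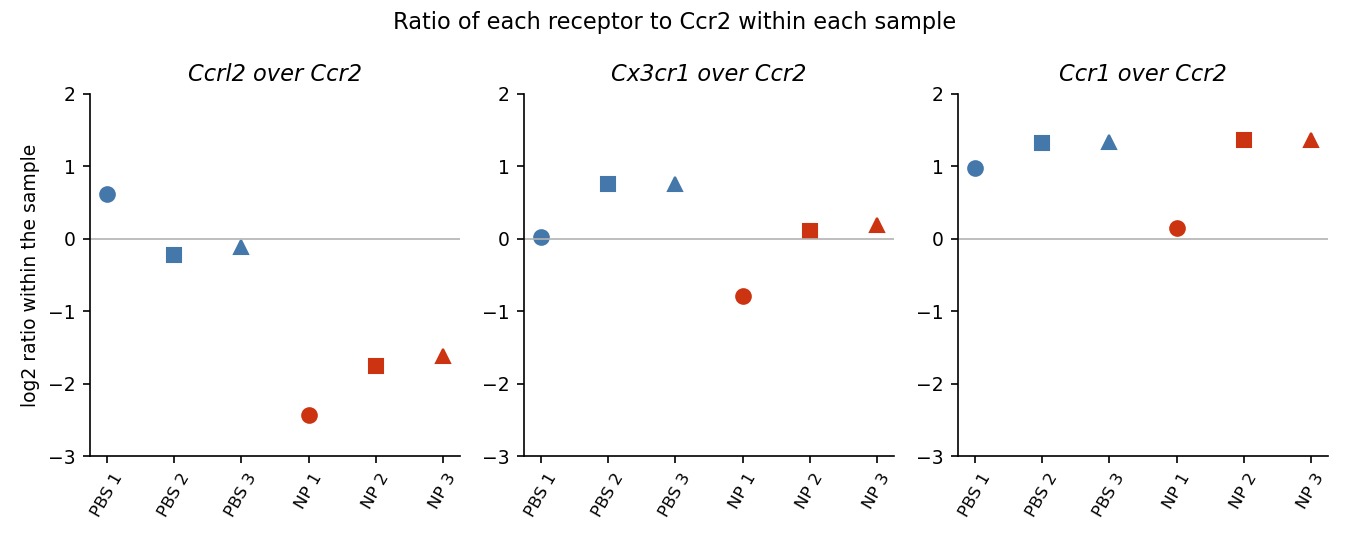
The log2 ratio of Ccrl2, Cx3cr1 and Ccr1 to Ccr2 within each sample, with 1 point per sample (blue PBS, red IRF5-NP) and a marker shape for each replicate number. The Ccrl2 ratio lies below -1.6 in every IRF5-NP sample and above -0.23 in every PBS sample, and the other ratios overlap between the groups.

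The monocyte-type receptors were also set against the others as a group, in a test that cannot pass 0.05 with these samples. The mean log2 value of Ccr2 and Cx3cr1 minus that of the other 8 receptors averaged 3.91 ± 0.21 in PBS samples (SD, n = 2) and 3.89 ± 0.50 in IRF5-NP samples (SD, n = 3), a difference of -0.021 (two-sided exact permutation test, p = 0.9). This mean over the others holds 6 receptors at or near background, and the difference moved to 0.26 without IRF5-NP replicate 3. With the others limited to Ccr1 and Ccrl2, a choice made after the values were seen, the difference was 0.90 (exact permutation p = 0.1, the smallest possible). Without Ccrl2 it was -0.084 (exact permutation p = 1). Cx3cr1 was lower in every IRF5-NP sample and Ccr2 overlapped, and the difference between these 2 receptors, tested as their ratio, had an exact permutation p of 0.6.

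The ligands of these receptors were given by a list of 23 genes, of which 22 were measured and the chemerin gene Rarres2 was not on the table used here. Of the 22, 6 passed as lower and none as higher, against 7.03% lower and 2.52% higher over the panel, and the median log2 fold change of the 22 was -0.43. All 3 ligands of Ccr2 fell. Ccl2, the main monocyte attractant, averaged 9577 ± 2807 normalized counts with PBS (SD, n = 2) and 853 ± 316 after IRF5-NPs (SD, n = 3), and its log2 fold change was -3.52 (limma, adjusted p = 0.000929). For Ccl7 it was -3.64 (limma, adjusted p = 0.00139) and for Ccl12, a close mouse relative of Ccl2, -3.30 (limma, adjusted p = 0.00307). With background subtraction Ccl7 (adjusted p = 0.0654) and Ccl12 (adjusted p = 0.107) did not pass in limma. Cx3cl1, the ligand of Cx3cr1, had 51.3 to 69.5 normalized counts with PBS and 80.5 to 107 with IRF5-NPs, without overlap and without passing (log2 fold change 0.59, limma adjusted p = 0.225). The Ccr2 ligands thus fell 9.88 to 12.5-fold in samples whose Ccr2 differed by 1.10-fold, within its spread.

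Among the ligands of Ccr1, Ccl3 fell (log2 fold change -2.63, limma adjusted p = 0.00591), and so did Ccl4, an inflammatory chemokine close to it, with -2.86 (limma adjusted p = 0.0022). Ccl5, a ligand of Ccr1, had 446 to 887 normalized counts with PBS and 306 to 704 with IRF5-NPs, with overlap (log2 fold change -0.28, limma adjusted p = 0.766). The Ccr1 ligands Ccl6 and Ccl9, with log2 fold changes of -0.53 and -0.40, did not pass either (limma adjusted p = 0.418 and 0.608). Ccl8 fell (log2 fold change -2.61, limma adjusted p = 0.0158), and its receptor Ccr8 was near background. Without IRF5-NP replicate 3, Ccl3 (-2.52) and Ccl8 (-2.69) did not pass, nor did Ccl8 without IRF5-NP replicate 1 (-2.52). Without PBS replicate 1, which leaves 1 PBS sample, both folds were smaller, Ccl3 at -1.96 and Ccl8 at -1.68. Of the Ccr4 ligands, Ccl17 overlapped, with 37.5 to 103 normalized counts with PBS and 32.4 to 54.6 with IRF5-NPs. Ccl22 did not overlap, with 80.1 to 179 and 23.1 to 62.8, and did not pass (log2 fold change -1.40, limma adjusted p = 0.142). Its values in IRF5-NP replicates 2 and 3 were below background, so that the size of this fold change is uncertain. The Ccr3 ligand Ccl24 had 2210 to 4844 normalized counts with PBS and 2841 to 9417 with IRF5-NPs, and did not pass (log2 fold change 0.90, limma adjusted p = 0.387). Ccl25, a ligand of Ccr9, had 30.1 to 42.6 normalized counts with PBS and 45.2 to 65.0 with IRF5-NPs, Ccl26 had 20.7 to 27.5 and 26.6 to 36.4, and Ccl27a had 27.9 to 43.6 and 39.0 to 46.6, all near background and none past the threshold. Ccl1, Ccl11, Ccl19, Ccl20, Ccl21a and Ccl28 were below background in every sample.

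**Figure D3:**
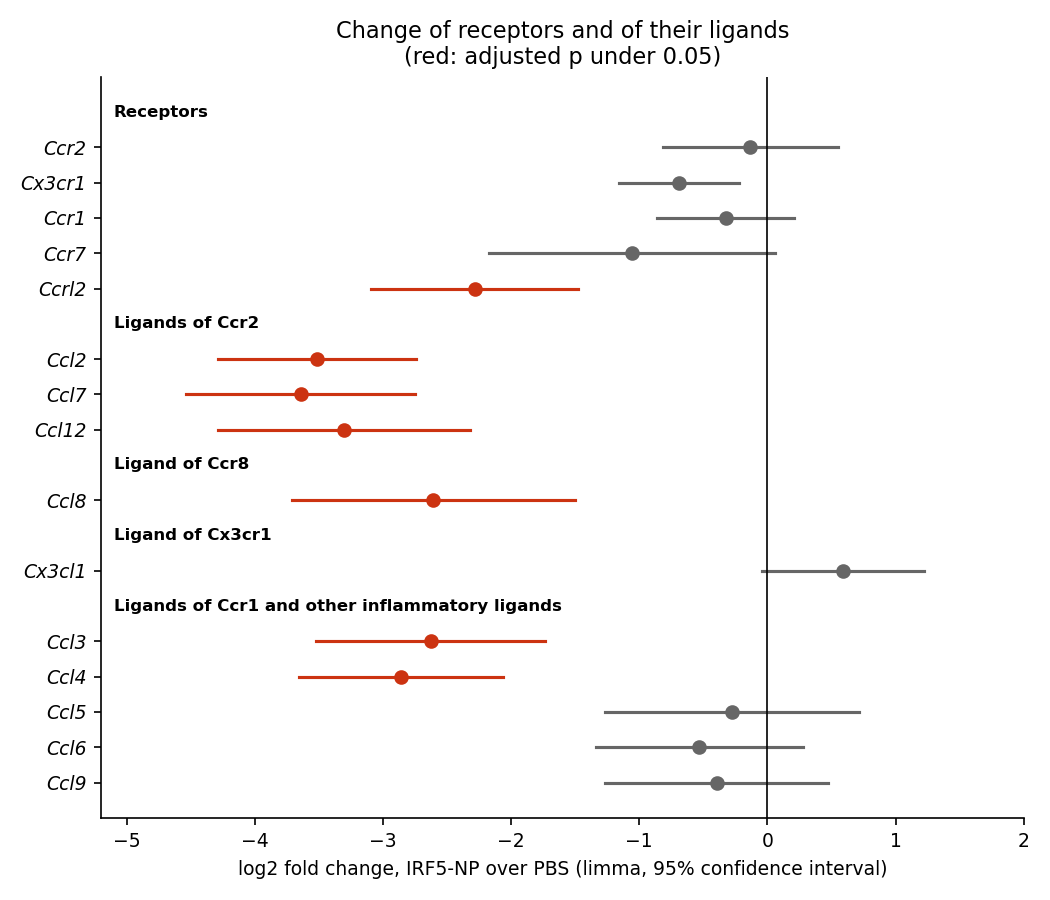
The log2 fold change of IRF5-NPs over PBS with its 95% confidence interval from limma (x axis) for 5 receptors and for ligands above background in every sample, in groups (y axis), in red where the adjusted p is under 0.05. Ccl24, the other ligand above background in every sample, is not drawn (log2 fold change 0.90, limma adjusted p = 0.387). Ccrl2 is the receptor in red, at -2.29, whereas Ccl2, Ccl7 and Ccl12 lie between -3.64 and -3.30 and their receptor Ccr2 lies at -0.13.

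Among 7 other chemokine receptors in the panel, Cxcr4 was the only one past the threshold, as lower, against 7.03% lower over the panel. It was also the only one above background in every sample. Cxcr4, the Cxcl12 receptor that holds leukocytes in the bone marrow, fell, from a PBS mean of 943 ± 293 (SD, n = 2) to an IRF5-NP mean of 256 ± 40.9 normalized counts (SD, n = 3), with limma's log2 fold change at -1.85 (adjusted p = 0.00567). It did not pass with positive control scaling (limma adjusted p = 0.258) or background subtraction (limma adjusted p = 0.0575). Cxcr2, the neutrophil receptor, had 25.0 to 56.0 normalized counts with PBS and 12.1 to 43.8 with IRF5-NPs, and Cxcr5 passed the background in 1 sample. The remaining 4 (Cxcr1, Cxcr3, Cxcr6 and Xcr1) were below background in every sample. Of 13 measured genes that act downstream of chemokine receptors, 2 passed as lower and none as higher, against 7.03% lower and 2.52% higher over the panel. They were Rgs1, a regulator that ends G protein signals of these receptors (log2 fold change -2.25, limma adjusted p = 0.023), and Itgal, the alpha chain of the integrin LFA-1 (-1.80, limma adjusted p = 0.00844). Rgs1 did not pass without PBS replicate 1 (-1.48), without IRF5-NP replicate 1 (-1.99) or without IRF5-NP replicate 3 (-2.40), and Itgal did not pass without IRF5-NP replicate 3 (-1.85). Pik3cg, the G protein-activated PI3 kinase, had 377 to 404 normalized counts with PBS and 259 to 409 with IRF5-NPs.

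The genes whose pattern was most like each receptor were taken as those with the smallest root mean square difference in centered log2 values over the 5 samples, among 482 genes, as a description with no test. For Ccrl2 they were Tnfaip3 (0.17 on the log2 scale), Cxcl2 (0.26), Ccl3 (0.26), Ccl8 (0.27) and Cd38 (0.28). All 5 are past the threshold as lower, against 9.34% of the 482 genes. Like Ccrl2 they were highest in PBS replicate 1, as with 2242, 713 and 642 normalized counts of Tnfaip3 in PBS replicates 1, 2 and 3. The choice by likeness to a receptor in these same samples favors such shared traits, so that they are no separate result. For Cx3cr1 the genes most alike were Trafd1 (0.11), Psmb8 (0.11), Myd88 (0.11), Tap1 (0.12) and Cd1d1 (0.13). Of these, Trafd1 and Tap1 are past the threshold as lower. For Ccr2 the genes were Ctgf (0.09), Fscn1 (0.11), Cd276 (0.14), Tspan8 (0.15) and Jak3 (0.15), none past the threshold. For Ccr1 they were Ctsl, Vrk2, Arhgef6, Was and Irf8, at 0.06 to 0.09, again none past the threshold. Among the receptors Cx3cr1 was nearest to Ccr1 (0.24) and farther from Ccr2 (0.50), and Ccrl2 was 0.92 or more from every other receptor.

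Markers of other cell types were counted as well, beside panel shares of 7.03% lower and 2.52% higher. A sort for F4/80 and CD11b should remove neutrophils and B, T and NK cells. Of 9 measured monocyte markers, which include Ccr2 and Cx3cr1, 2 passed as lower (Chil3 and Itgal) and none as higher. Their summed level was 39442 to 65474 normalized counts with PBS and 59210 to 79921 with IRF5-NPs, and it was mostly that of 2 genes which differed in opposite directions. Fn1, the gene of fibronectin, had 15752 to 32947 normalized counts with PBS and 51654 to 71276 with IRF5-NPs (log2 fold change 1.45, limma adjusted p = 0.0683), and Chil3 had 17089 to 23631 and 390 to 822. Ly6c1, a Ly6C gene of inflammatory monocytes and endothelium, had 927, 1534 and 1510 normalized counts in PBS replicates 1, 2 and 3, and 839, 661 and 707 in IRF5-NP replicates 1, 2 and 3, without overlap and without passing (log2 fold change -0.70, limma adjusted p = 0.14). Its samples ranked otherwise than those of Ccr2, since among the PBS samples Ly6c1 was lowest and Ccr2 highest in replicate 1. Of 6 measured markers of resident (large) peritoneal macrophages, 3 passed as higher (Timd4, Selp and Cxcl13) and none as lower, with a summed level of 12189 to 23223 normalized counts with PBS and 32563 to 66170 with IRF5-NPs. The neutrophil markers, 10 in the panel with 1 past the threshold as higher (Csf3r) and 1 as lower (Mmp8), summed to 2263 to 6823 normalized counts with PBS and 1625 to 2563 with IRF5-NPs, highest in PBS replicate 1, as was Ccrl2. In PBS replicate 1 most of this sum was S100a8 (3405 normalized counts) and S100a9 (2598). Of the list, Mpo, Camp and Cxcr1 were below background in every sample, and Ly6g had 22.5 to 44.2 normalized counts and was above background in 1 sample. The eosinophil and mast cell markers, 11 in the panel with 2 past the threshold as higher (Cpa3 and Hdc), were above background in every sample for 1 gene, Hdc. Of 5 macrophage markers 1 passed, Mertk, as lower. The B cell list held 1 measured gene, Ms4a1, which passed as higher at 16.3 to 25.9 normalized counts with PBS and 50.5 to 75.4 with IRF5-NPs, above background in 2 samples, and the NK cell list 1, Nkg7, below background in every sample. No gene of the T cell list or of the tumor and mesothelial list was in the table used here. The part of these cells in the values of Ccrl2, Cx3cr1 and Ccr2 was not tested.

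The direction of the small differences depended on the scaling. When all samples were set to the same median, the log2 fold changes of all genes moved up by 0.24, and with quantile normalization their median moved up by 0.13. Ccr2 then stood at 0.11 and 0.20, and Ccr1 at -0.09 and 0.06. With the positive control probes as the only scaling the median of all genes moved down by 0.85. Relative to the median of all genes, Ccrl2 lay between -2.34 and -1.71, Cx3cr1 between -0.87 and -0.52, Ccr1 between -0.38 and -0.05 and Ccr2 between -0.43 and 0.10 over all 21 settings.

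**Figure D4:**
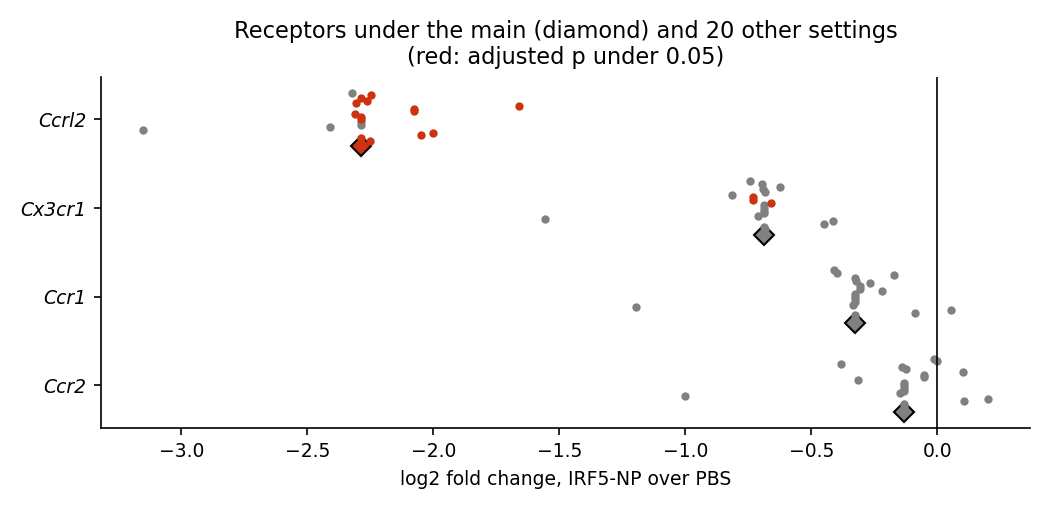
The log2 fold change of IRF5-NPs over PBS (x axis) of the 4 receptors above background in every sample (y axis), as reported (diamond) and under 20 other settings (points), in red where the adjusted p is under 0.05. Ccrl2 and Cx3cr1 lie below 0 in all settings, Ccrl2 between -3.15 and -1.66, and Ccr1 and Ccr2 reach both sides of 0.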

How the data were processed

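The deposited unit is a signal, the normalized count of each nCounter probe on a linear scale. In their methods, given for cultured macrophages, the authors checked raw counts with NanoStringQCPro and scaled them in nSolver to housekeeping genes. Control probes (8 negative, 6 positive) were raw counts. Gene values were whole multiples of 1 factor per sample (0.952 to 2.60), within 0.01 normalized counts for all 754 genes, and the recovered counts served for depth, background and the chi-square comparison of replicates.

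Groups came from the sample titles. Log2(value + 1) was fitted by limma 3.58.1 in R 4.3.3 (lmFit, eBayes with a mean-variance trend). The fit was also tried on data simulated from the means and spread of these same samples. P-values were two-sided and adjusted over all 754 genes by Benjamini-Hochberg, at a threshold of 0.05. PBS replicates 2 and 3 were averaged as log2 values. All 10 receptors matched RefSeq (GRCm38.p6) by symbol, 9 with a promoter, and the build of the panel is not given in the sources used here. Receptors, lists and tests were chosen with earlier results of these data known. A further gene of the rule is not reported here and was left out of the ratios. The rule named every other receptor, ligands and other receptors above background in any sample, signalling genes past the threshold and Pik3cg, and the 5 genes most like each well-measured receptor. Python 3.11.15, numpy 2.4.6, pandas 2.3.3, scipy 1.17.1 and matplotlib 3.10.9 were used.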

Additional observations from a re-analysis of the deposited data

How the results depend on the processing

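Against 72 genes past the threshold (19 higher, 53 lower), positive control scaling gave 14, background subtraction 25, no variance trend 41, array weights 125, 6 separate samples 121 and 6 separate samples with a replicate block 135. The methods' t-test gave 0 after Benjamini-Hochberg and 0 after Benjamini-Yekutieli adjustment (125 with an unadjusted p below 0.05, against 191 for limma). It was run with PBS replicates 2 and 3 as 1 sample, n = 2 against n = 3, and not on the 6 separate samples. The split was 42 higher and 36 lower with a common median, and 35 and 40 with quantile normalization. Leaving out each sample gave 21 (without IRF5-NP replicate 3) to 83 genes, with 35 without PBS replicate 1 and 41 without IRF5-NP replicate 2.

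Ccrl2 stayed lower under all 20 alternatives and passed under 15. It did not pass with positive control scaling (-3.15), background subtraction (-2.41) or the methods' t-test (-2.29 under both adjustments), and it lay between -2.32 and -1.66 with each sample left out. Cx3cr1 passed only with array weights (-0.66), 6 separate samples (-0.73) and the replicate block (-0.73). Ccr2 reversed to 0.11 with a common median and to 0.20 with quantile normalization, and lay between -0.38 and 0.10 with each sample left out, above 0 without PBS replicate 1. Ccr1 reversed to 0.055 with quantile normalization. The ratio of monocyte-type to other receptors reversed to 0.43 with background subtraction and 0.90 over receptors above background (chosen after seeing the data), and lay between -0.22 and 0.26 with each sample left out. Ccl5 reversed to 0.21 without PBS replicate 1 and to 0.10 without IRF5-NP replicate 1, in a range of -0.50 to 0.21, and Cx3cl1 to -0.27 with positive control scaling. Among the alternatives of the 15 other named genes, 259 of 300 kept direction and side of the threshold and 38 lost the call. All called genes among them lost it under the methods' t-test, and Ccl3, Ccl8, Cxcr4, Rgs1 and Itgal lost it under both positive control scaling and background subtraction. Fewer samples leave fewer degrees of freedom, the lone PBS sample left without PBS replicate 1 is assumed to vary like the others, and for the remaining changes the cause was not tested. The planned count test was not run, because the recovery of whole counts did not pass a separate check in the IRF5-NP samples. The numbers share no stated litter or run. Deviations of same-numbered samples from their group means correlated at 0.158, 0.178 and 0.0953 across 482 genes, which are not independent. Differently numbered samples correlated at -0.167 to 0.144, and PBS replicate 3 was closer to IRF5-NP replicate 2 (0.144) than to IRF5-NP replicate 3. The correlations thus do not show that the numbers mark pairs, and the block changed no other receptor's call.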
